A study of Mus musculus with 24 samples.

Results

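Transcripts of 45 genes of the cell cycle were followed in fetal mouse liver, out of 25361 genes in the table. The genes were taken by name from lists of known roles: 17 genes of S phase, in which DNA is copied, 23 genes of G2 phase and mitosis (G2/M), in which chromosomes are condensed and separated, and 5 regulators of G1, the phase before DNA copying. All 45 were found and all passed the filter on low values in every comparison. Livers came from embryos at embryonic day 12.5 and were divided with beads against CD146, a surface protein of endothelial cells, into liver sinusoidal endothelial cells (LSEC) and the remaining cells (non-EC). Each fraction held 4 genotypes with 3 replicates each, 24 libraries in all, and each library came from a single embryo of either sex. Controls were Cre- littermates. Chd4-ECKO embryos carried 2 floxed Chd4 alleles and 1 floxed Brg1 allele, Brg1-ECKO embryos carried 1 floxed Chd4 allele and 2 floxed Brg1 alleles, Chd4/Brg1-ECDKO embryos carried 2 of each, and all mutants carried a Cre driven by the VE-cadherin promoter, which acts in endothelial cells and also in some blood cells. The lines were kept on a mixed background. CHD4 and BRG1 are ATPase subunits of chromatin remodeling complexes.

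A dividing cell turns its cell cycle genes on in waves. In G1, D-type cyclins activate kinases that phosphorylate the retinoblastoma protein, which releases E2F factors, and these turn on genes for the replicative helicase, for nucleotide supply and for cyclin E. Genes of mitosis follow later, through complexes that bind CCAAT boxes and the short element called CHR (cell cycle genes homology region) in their promoters. The inhibitors p21 (Cdkn1a) and p27 (Cdkn1b) hold the kinases back. The fetal liver is a growing organ and the main site of blood formation at this stage, so many of its cells divide.

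Promoters of 4 members that the comparisons turn on, or that show the motifs, are printed as the 120 bases upstream of the start of the gene's canonical transcript, 5′ to 3′ on the gene's strand, from the GRCm39 genome with the GENCODE annotation. Capitals mark an E2F site (TTTCCCGC, TTTGGCGC, TTTCGCGC or TTTGCCGC), a CCAAT box (CCAAT) or a CHR (TTTGAA or TTCGAA) on either strand. Mcm4 is a helicase subunit gene at chr16:15455265-15455384 on the minus strand. Slbp, the histone mRNA binding protein gene, lies at chr5:33809954-33810073 on the minus strand. Kif23, which encodes a motor of cytokinesis, lies at chr9:61854074-61854193 on the minus strand. Ccnb2 (cyclin B2) lies at chr9:70328875-70328994, also on the minus strand.
Mcm4: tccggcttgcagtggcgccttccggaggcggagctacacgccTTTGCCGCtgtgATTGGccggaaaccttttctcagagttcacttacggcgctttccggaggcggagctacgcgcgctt
Slbp: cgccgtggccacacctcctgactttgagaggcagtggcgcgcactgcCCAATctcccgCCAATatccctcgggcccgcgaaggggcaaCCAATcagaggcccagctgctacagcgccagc
Kif23: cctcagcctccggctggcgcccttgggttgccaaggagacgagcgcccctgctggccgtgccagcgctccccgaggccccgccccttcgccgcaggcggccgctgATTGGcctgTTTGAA
Ccnb2: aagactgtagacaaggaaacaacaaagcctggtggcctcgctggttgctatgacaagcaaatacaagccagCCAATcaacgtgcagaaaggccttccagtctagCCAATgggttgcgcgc

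Over the 250 bases upstream of the start, a CHR was found in 8 of 23 G2/M promoters (34.8%) and 1 of 17 S-phase promoters (5.88%), beside 17% of the promoters of 21618 genes. A CCAAT box was found in 10 of 17 S-phase promoters (58.8%) and 11 of 23 G2/M promoters (47.8%), beside 36.6% of all. An E2F site was found in 3 of 17 S-phase promoters (17.6%) and 1 of 23 G2/M promoters (4.35%), beside 2.29% of all. In the printed windows, Mcm4 held an E2F site and a CCAAT box, Slbp held 3 CCAAT boxes, Kif23 held a CCAAT box and a CHR close to the start, and Ccnb2 held 2 CCAAT boxes. These matches describe the sequence and were not tested for binding.

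Values are TPM, a transcript level scaled to gene length and to a fixed total per library, so the files do not give the reads behind a value and no counting error can be given. The fractions were checked with marker genes. Cdh5, the endothelial cadherin, ranged from 194 to 368 TPM in the 12 LSEC libraries and from 3.33 to 13.4 TPM in the 12 non-EC libraries. The hepatoblast gene Afp reached 1267 to 12314 TPM in LSEC libraries against 7808 to 16602 TPM in non-EC libraries, and the pericyte gene Pdgfrb was higher in LSEC (30.4 to 61.3 TPM against 1.92 to 5.03 TPM), so genes of other cells were detected in LSEC libraries too. Summed hepatoblast markers were highest among LSEC libraries in Brg1-ECKO replicate 1, at 31797 TPM against at most 9261 TPM elsewhere. That library was also the highest of the LSEC libraries in Ccne1, Rrm2 and Mki67 (114, 190 and 279 TPM). Mitochondrial genes took 13.9% to 31.5% of TPM in LSEC and 2.33% to 7.69% in non-EC libraries. Chd4 itself was not called lower in LSECs of Chd4-ECKO embryos (285, 255 and 246 TPM in controls, 223, 168 and 252 TPM in mutants), nor Smarca4, which encodes BRG1, in Brg1-ECKO (161, 144 and 134 TPM against 157, 111 and 127 TPM). In Chd4/Brg1-ECDKO LSECs neither was called lower, with Chd4 at 242, 250 and 256 TPM and Smarca4 at 130, 117 and 151 TPM (log2 fold changes of -0.07 and -0.14). These values cover the whole gene and not the deleted exons alone. The study's qRT-PCR used LSECs of the same age isolated by another surface protein, LYVE1. It found both transcripts lower in the matching mutants. In such bulk samples, fewer cells of a type and less RNA per cell cannot be told apart. The labels do not give litters.

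The mean of the S-phase genes separated all libraries of the fractions, and the mean of the G2/M genes separated those of the controls. The mean of the 17 S-phase genes on the log2(TPM + 1) scale was 6.54 to 6.89 in the 12 LSEC libraries and 7.43 to 7.80 in the 12 non-EC libraries, with no overlap. The mean of the 23 G2/M genes was 6.27 to 6.79 in LSEC and 6.34 to 6.92 in non-EC libraries, which overlapped. In controls alone it was 6.29 to 6.51 in LSEC and 6.86 to 6.91 in non-EC libraries, with no overlap. The S-phase mean stood above the G2/M mean by 0.03 to 0.38 in LSEC and by 0.64 to 1.40 in non-EC libraries, so that no library of one fraction reached the other in this difference.

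**Figure D1:**
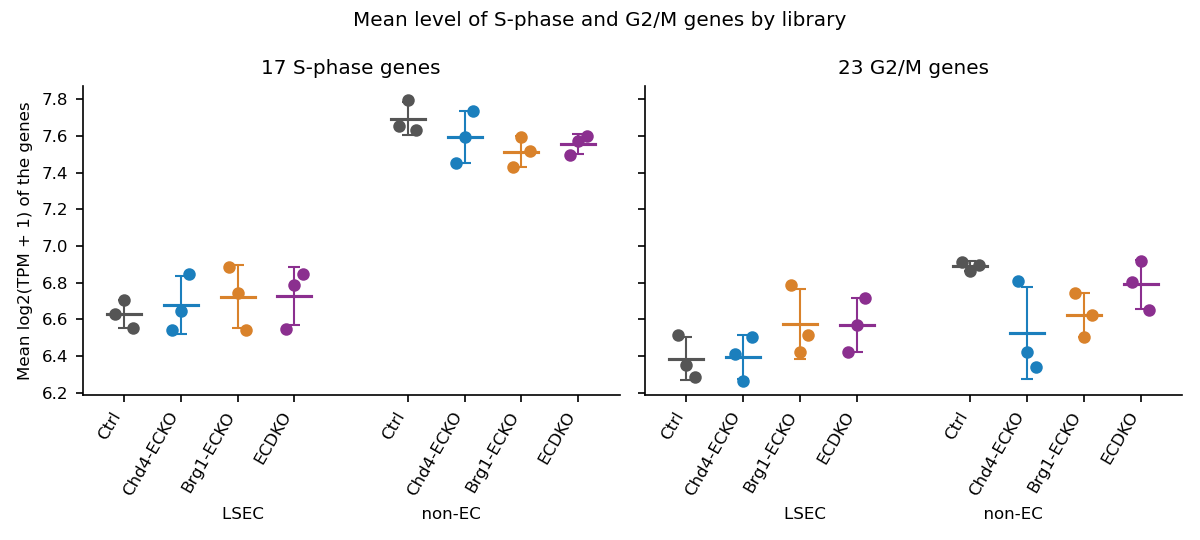
Mean log2(TPM + 1) of the S-phase genes (left) and of the G2/M genes (right) in each of the 24 libraries, by fraction and genotype, with 1 point per library, a line at the mean of each group of 3 and bars for the SD. S-phase means are 6.54 to 6.89 in LSEC and 7.43 to 7.80 in non-EC libraries, while the G2/M means overlap over all genotypes and not in controls.

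The first question is how the cell cycle genes differ between the fractions of control livers. In limma's test, 32 of the 45 members passed (Benjamini-Hochberg adjusted p under 0.05), 29 lower and 3 higher in LSEC, where 67.1% of the 13775 genes tested passed. Of the S-phase genes 15 of 17 and of the G2/M genes 14 of 23 were lower in LSEC, beside 35.8% of all genes, and 3 of the 5 G1 regulators were higher, beside 31.3% of all genes. The median log2 difference (LSEC minus non-EC) was -1.17 over the S-phase genes and -0.61 over the G2/M genes, beside -0.09 over all genes tested. With mitochondrial genes taken out of the TPM total these medians were -0.89, -0.34 and 0.16, and the share of calls that were higher in LSEC went from 46.7% to 61.0%. The control LSEC values lay below all control non-EC values for 16 of 17 S-phase and 17 of 23 G2/M genes, beside 40.2% of all genes. With all 12 LSEC libraries set against all 12 non-EC libraries, the LSEC values lay lower without overlap for 11 of 17 S-phase genes and 11 of 23 G2/M genes, beside 15.3% of all genes. Over the mean of the 4 genotypes 39 members were called, where 82.6% of genes were called, 30 lower and 9 higher in LSEC (41.2% and 41.4% of genes). The higher ones included Cenpf and Cenpe, with log2 differences of 1.21 and 1.05, or 0.66 and 0.60 without 3 non-EC libraries that stood apart and are described with the mutants.

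Among the S-phase genes Ccne1, Cdc6 and Rrm2 had the largest differences. Ccne1 (cyclin E1, which drives entry into S phase) was at 63.3, 65.8 and 60.3 TPM in control LSECs and at 216, 232 and 189 TPM in control non-EC cells, and its log2 difference was -1.73 ± 0.19 (SE, limma adjusted p = 6.21e-08). Cdc6, which loads the helicase onto origins, was at 25.3, 26.3 and 21.1 TPM in LSECs and at 75.6, 85.7 and 74.7 TPM in non-EC cells (-1.66 ± 0.17, adjusted p = 3.6e-08). Rrm2, a subunit of ribonucleotide reductase, was at 129, 122 and 110 TPM in LSECs and at 355, 411 and 309 TPM in non-EC cells (-1.56 ± 0.15, adjusted p = 1.62e-08). In each of these 3 genes every non-EC control lay above every LSEC control. The 6 genes of the MCM2-7 helicase were all lower in LSEC, from -1.05 for Mcm4 to -1.45 for Mcm7. Mcm6, for instance, was at 174, 167 and 164 TPM in LSECs and at 349, 381 and 336 TPM in non-EC cells (-1.07 ± 0.09, adjusted p = 2.37e-09). Pcna, the sliding clamp of DNA polymerases, was at 311, 413 and 366 TPM in LSECs and at 590, 747 and 691 TPM in non-EC cells, with a log2 difference of -0.90. Rrm1 (-1.28), Uhrf1 (-1.22, maintenance of DNA methylation), Cdc45 (-1.08, a helicase cofactor) and Slbp (-0.97) were also lower. Gins2, another helicase cofactor, was lower by the smallest margin of the called S-phase genes (-0.40, adjusted p = 0.0123) and was not called without mitochondrial genes (adjusted p = 0.271). Tyms, the thymidylate synthase, and Ccne2, the second cyclin E, did not pass (-0.14 and 0.15, adjusted p = 0.374 and 0.642).

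Among the G2/M genes the cyclins and the kinases Aurka, Aurkb and Plk1 were lower in LSEC, while the kinase genes Cdk1 and Bub1 and the centromere genes Cenpe and Cenpf overlapped between the fractions. Ccna2 (cyclin A2) was at 123, 117 and 110 TPM in control LSECs and at 236, 283 and 222 TPM in control non-EC cells (-1.07). Ccnb1 (cyclin B1) was at 99.5, 92.8 and 84.1 TPM in LSECs and at 168, 202 and 157 TPM in non-EC cells (-0.92). The kinases Aurka (-0.91) and Plk1 (-0.84) and Cdc20 (-0.87), the activator of the anaphase-promoting complex, were lower by similar amounts. Cdk1, the kinase that these cyclins activate, was at 85.9, 90.4 and 80.8 TPM in LSECs and at 81.1, 89.6 and 80.4 TPM in non-EC cells. These groups overlapped and the difference did not pass (0.03, adjusted p = 0.757), but without mitochondrial genes Cdk1 was called higher in LSEC (0.31). The values of Cenpf (52.1, 33.9 and 40.6 TPM in LSECs against 36.8, 21.7 and 45.4 TPM) and Cenpe (83.2, 58.3 and 65.7 TPM against 59.2, 37.9 and 69.5 TPM) also overlapped. Mki67, the gene of the Ki-67 antigen, was at 189, 145 and 129 TPM in LSECs and at 275, 235 and 302 TPM in non-EC cells. Its groups did not overlap, but its difference of -0.82 ± 0.41 did not pass (limma adjusted p = 0.0841). It passed in a limma fit that paired same-numbered fractions of a genotype (adjusted p = 0.0311). That fit assumes that they came from 1 embryo, which the labels do not state. With that pairing 35 members were called, 32 lower and 3 higher in LSEC. The share of all genes called in the paired fit is not given here, so these counts have no background beside them.

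Of the 5 G1 regulators 3 were higher in LSEC. Ccnd1 (cyclin D1) was at 215, 259 and 191 TPM in control LSECs and at 120, 90.7 and 125 TPM in control non-EC cells (0.98 ± 0.17, adjusted p = 3.18e-05). Ccnd2 (cyclin D2) was at 85.5, 66.9 and 80.2 TPM in LSECs and at 46.9, 26.7 and 40.7 TPM in non-EC cells (1.04 ± 0.22, adjusted p = 0.00026). Cdkn1b was at 30.1, 28.9 and 29.2 TPM in LSECs and at 18.9, 15.4 and 20.7 TPM in non-EC cells (0.66 ± 0.15, adjusted p = 0.000471). All 3 were higher in every control LSEC library than in any control non-EC library, and Cdkn1b was the 1 member for which this held over all 12 libraries of each fraction, beside 22.4% of all genes. Ccnd3 (cyclin D3) overlapped and did not pass (-0.12), nor did Cdkn1a (0.24, adjusted p = 0.305), which was called higher in LSEC without mitochondrial genes (0.48, adjusted p = 0.0376). Under the other scalings the differences of Tyms, Bub1, Kif23 and Ccnd3 became positive, and that of Cdkn1a became negative under quantile normalization.

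**Figure D2:**
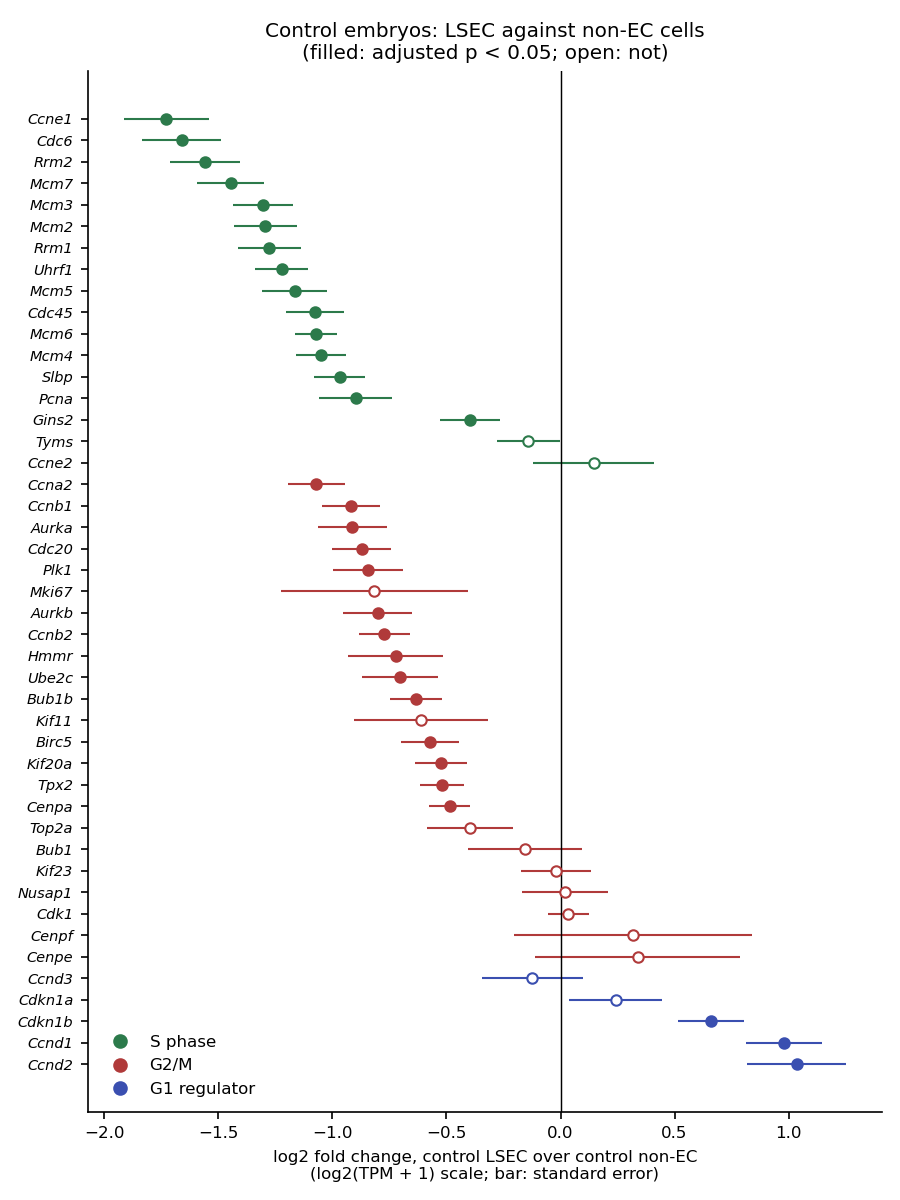
Log2 difference between LSEC and non-EC libraries of control livers on the log2(TPM + 1) scale for each of the 45 members, with bars for the standard error (3 libraries per fraction). Of the 17 S-phase genes 16 lie to the left of 0, with a median of -1.17 over all of them and Ccne2 to the right, G2/M genes have a median of -0.61, and Ccnd1, Ccnd2 and Cdkn1b lie to the right.

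The remaining lists of cell cycle genes, 112 genes in 9 lists, were counted in the same comparison of control fractions, in which 35.8% of all genes were lower and 31.3% higher in LSEC. All 16 genes of DNA synthesis and 10 of 11 of origin licensing were lower in LSEC, and 17 of 19 genes of the E2F, retinoblastoma and DREAM group were lower and 2 higher. Examples are Mcm10 (-1.71), which starts the helicase, Cdt1 (-1.65), which loads it, and E2f4 (-2.03), at 107, 112 and 84.4 TPM in LSECs against 408, 459 and 374 TPM in non-EC cells. Kinetochore and spindle checkpoint genes were lower in 9 of 14, spindle and cytokinesis genes in 7 of 14 with 2 higher, condensin and cohesin genes in 4 of 10, and cyclin-dependent and checkpoint kinases in 7 of 11, with Cdk6 at -2.18. Of the CDK inhibitors 2 of 3 tested were higher in LSEC, led by Cdkn1c (p57), with a log2 difference of 2.91, and Cdkn2c (0.56). Of 12 p53 targets 3 were higher and 3 lower, shares under those of all genes in both directions. Marker genes of other cell types moved with these differences: 10 of 11 erythroid, 11 of 12 hepatoblast and 8 of 8 megakaryocyte markers were lower in LSEC, while 8 of 8 mesenchymal markers were higher (median log2 difference of 4.50), of 12 myeloid markers 4 were higher and 4 lower, and of 8 hemoglobin genes tested 1 was higher and 4 lower. The part of cell composition in the differences was not tested.

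**Figure D3:**
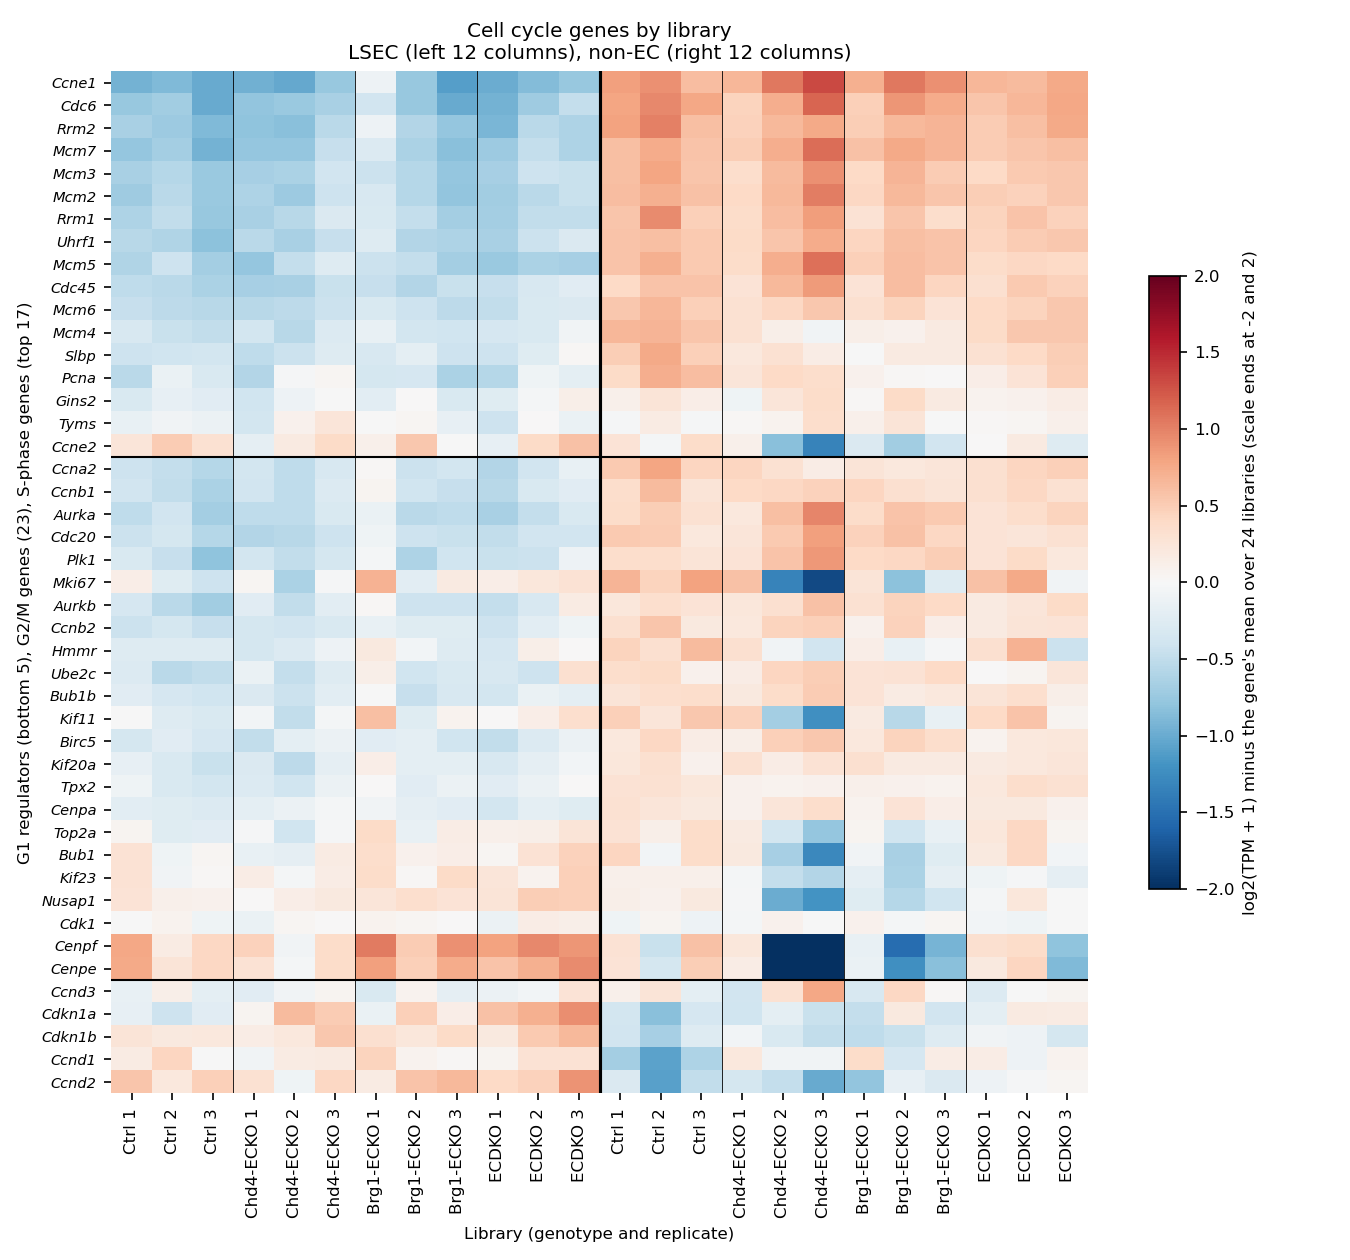
Log2(TPM + 1) of the 45 members (rows, by class) in the 24 libraries (columns, by fraction and genotype), each row centred on its mean. Most S-phase rows are lower across the LSEC columns than across the non-EC columns, with Ccne2 as an exception, and Cenpf, Cenpe and Mki67 are lowest in 3 non-EC libraries of mutants.

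The second question is whether loss of Chd4, Brg1 or both in endothelial cells moves these genes in LSECs. No gene of S phase or G2/M passed the test in any mutant. Of these genes 0 of 40 were called in Chd4-ECKO, Brg1-ECKO or Chd4/Brg1-ECDKO LSECs against controls, with limma and Benjamini-Hochberg adjustment, and 0, 0 and 2 had an unadjusted p under 0.05. Among all 13444 genes tested, 0.707%, 0.0223% and 0.87% were called and 6.49%, 9.68% and 12.1% had an unadjusted p under 0.05. Log2 fold changes of S-phase genes ran from -0.22 to 0.14 in Chd4-ECKO, from -0.14 to 0.29 in Brg1-ECKO and from -0.11 to 0.23 in Chd4/Brg1-ECDKO LSECs. Those of G2/M genes ran from -0.27 to 0.21, from 0.03 to 0.39 and from -0.03 to 0.42. In data simulated for the Chd4/Brg1-ECDKO comparison, limma called 11 of 50 genes given a log2 change of 0.5 (22%). Changes of this size would thus often be missed, and 0 calls do not show that the genes were unchanged. G2/M medians were 0.00, 0.20 and 0.18, beside 0.01, 0.08 and 0.16 over all genes, so in the Chd4/Brg1-ECDKO LSECs the G2/M genes lay near the shift of all genes. The 3 mutants were compared with the same 3 control libraries. Markers of other cells also differed: of 11 myeloid markers tested 3 were called higher in Chd4-ECKO and 0 in the others by limma, with 10, 7 and 6 higher at an unadjusted p under 0.05 in Chd4-ECKO, Brg1-ECKO and Chd4/Brg1-ECDKO. Their summed level was 466 to 587 TPM in controls, 627 to 1062 TPM in Chd4-ECKO, 478 to 740 TPM in Brg1-ECKO and 557 to 848 TPM in Chd4/Brg1-ECDKO LSECs. In Brg1-ECKO LSECs 12 of 12 hepatoblast markers were higher and 7 of 12 endothelial markers lower at an unadjusted p under 0.05, with 0 called. Of 7 hemoglobin genes tested 3 were called higher in Chd4-ECKO and 3 in Chd4/Brg1-ECDKO. The part of these in the values of the members was not tested.

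Cdkn1a, which encodes the CDK inhibitor p21 and is a target of p53, was the 1 member called. It was at 5.72, 4.67 and 5.42 TPM in control LSECs, at 6.83, 10.7 and 9.73 TPM in those of Chd4-ECKO, at 5.91, 9.50 and 7.29 TPM in those of Brg1-ECKO embryos and at 10.3, 11.3 and 13.4 TPM in Chd4/Brg1-ECDKO LSECs. All mutant libraries were above all controls, which held for 8.7%, 10.9% and 20.8% of all genes in the 3 comparisons. It rose by 1.01 ± 0.20 on the log2 scale in the Chd4/Brg1-ECDKO (adjusted p = 0.0299). The single mutants did not pass, with 0.67 ± 0.20 in the Chd4-ECKO (adjusted p = 0.22) and 0.43 in the Brg1-ECKO (adjusted p = 0.504). The call in Chd4/Brg1-ECDKO was lost when control replicate 1, 2 or 3 or mutant replicate 2 or 3 was left out, with adjusted p from 0.0795 to 0.155, while the log2 fold change stayed between 0.81 and 1.13 under every alternative. The p53 target list gave 0 of 12 called in Chd4/Brg1-ECDKO LSECs. All 12 had a positive fold change, with a median of 0.31 beside 0.16 over all genes. Of the calls over all genes in that comparison, 86.3% were higher. The share of all genes with a positive fold change is not given here. Cenpf and Nusap1, a microtubule-binding spindle protein, had an unadjusted p under 0.05 in Chd4/Brg1-ECDKO (0.42 and 0.26) and did not pass adjustment (0.383 and 0.389). Between Chd4/Brg1-ECDKO and Chd4-ECKO LSECs 0 members were called and 3 had an unadjusted p under 0.05, Cenpf (0.62), Cenpe (0.54) and Nusap1 (0.30), where 0.0372% of genes were called and 10.4% had such a p.

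The same mutants were then compared in the non-EC cells, which the Cre reaches only as far as it acts in some blood cells. Few members were called, Ccnd1 higher and Mcm4, Slbp, Pcna, Ccna2 and Nusap1 lower in 1 or both single mutants. In Chd4-ECKO non-EC cells 4 members were called (1 higher, 3 lower) among 12223 genes of which 9.48% were called (6.17% higher, 3.31% lower). In Brg1-ECKO non-EC cells 5 members were called (1 higher, 4 lower), where 11.7% of genes were called (8.91% higher, 2.76% lower). In Chd4/Brg1-ECDKO non-EC cells 0 members were called by limma and 4 had an unadjusted p under 0.05, where 0.581% of genes were called and 11.7% had such a p. Taken over both directions, 4 and 5 of 45 are shares near the background. Hepatoblast markers moved with the mutants: 10 of 12 were called higher in Chd4-ECKO, 12 of 12 in Brg1-ECKO and 1 of 12 in Chd4/Brg1-ECDKO non-EC cells, and their summed level was 19468 to 21715 TPM in controls and 25233 to 42928 TPM in mutants. The part of this in the cell cycle genes was not tested.

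Ccnd1 was at 120, 90.7 and 125 TPM in control non-EC cells, at 223, 183 and 183 TPM in the Chd4-ECKO, at 248, 152 and 214 TPM in the Brg1-ECKO and at 212, 179 and 201 TPM in the Chd4/Brg1-ECDKO. Every mutant library lay above every control, which held for 15.8%, 21.9% and 16.0% of all genes in the 3 comparisons. Against the same controls Ccnd1 rose by 0.81 ± 0.18 on the log2 scale in the Chd4-ECKO (adjusted p = 0.0217) and by 0.85 ± 0.18 in the Brg1-ECKO (adjusted p = 0.0115), and its 0.82 in the Chd4/Brg1-ECDKO did not pass (adjusted p = 0.0597). In LSECs, where control Ccnd1 was already at 191 to 259 TPM, no such difference was called. The LSEC effect minus the non-EC effect was -0.91, -0.86 and -0.81 in the 3 genotypes and did not pass (adjusted p = 0.068, 0.078 and 0.297).

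Few genes of DNA replication fell in the non-EC cells of the single mutants: of the 17 S-phase genes 2 were called lower in Chd4-ECKO and 3 in Brg1-ECKO, with median log2 fold changes of -0.02 and -0.12 beside 0.01 and 0.02 over all genes. Of 16 further DNA synthesis genes 1 was lower in each. Mcm4 was at 262, 265 and 243 TPM in controls, 205, 179 and 157 TPM in the Chd4-ECKO, 179, 175 and 188 TPM in the Brg1-ECKO and 217, 240 and 240 TPM in the Chd4/Brg1-ECDKO. All single-mutant libraries lay below the controls, which held for 11.6% and 18% of all genes, and the log2 fold changes were -0.51 ± 0.10 in the Chd4-ECKO (adjusted p = 0.0123) and -0.51 in the Brg1-ECKO (adjusted p = 0.00778). With length and GC content taken out of each library, as described below, neither call remained (-0.10 and -0.25, limma adjusted p = 0.672 and 0.230). Slbp was at 234, 283 and 232 TPM in controls, 194, 206 and 186 TPM in the Chd4-ECKO, 167, 190 and 189 TPM in the Brg1-ECKO and 207, 219 and 234 TPM in the Chd4/Brg1-ECDKO. It fell by 0.35 in the Chd4-ECKO (adjusted p = 0.0469) and by 0.45 in the Brg1-ECKO (adjusted p = 0.0129). Pcna was at 590, 747 and 691 TPM in controls and at 480, 459 and 455 TPM in Brg1-ECKO, where it fell by 0.53 (adjusted p = 0.00983). Pcna did not pass in Chd4-ECKO, at 534, 593 and 579 TPM. Ccna2, at 236, 283 and 222 TPM in controls and 195, 191 and 193 TPM in Brg1-ECKO, passed narrowly there (adjusted p = 0.0491), and Nusap1, at 58.7, 57.4 and 62.2 TPM in controls and 53.4, 26.8 and 23 TPM in Chd4-ECKO, passed in that comparison (-0.87 ± 0.24, adjusted p = 0.0463). The Nusap1 call was lost whenever a library other than Chd4-ECKO replicate 1 was left out. Its log2 fold change ran from -1.23 to -0.64 with a library left out, and its lowest values were in Chd4-ECKO replicates 2 and 3. Of the other lists, 4 of 11 origin licensing genes were lower in Chd4-ECKO non-EC cells, where 3.31% of all genes were lower, led by Orc2, a subunit of the origin recognition complex, at 147, 148 and 135 TPM in controls and 104, 81.3 and 73.9 TPM in mutants (-0.73). Rb1, the retinoblastoma gene, was also lower in Chd4-ECKO (-1.06), as were 2 of 14 kinetochore and 2 of 14 spindle and cytokinesis genes. Rb1 was at 28.1, 20.6 and 25.9 TPM in controls and 17.9, 10.1 and 7.90 TPM in Chd4-ECKO, lowest, like Orc2, in replicates 2 and 3, which stood apart in GC content and length. The calls in these further lists were not repeated without those libraries. In Brg1-ECKO, where 2.76% of all genes were lower, this held for 2 of 11 origin licensing genes, with Orc2 at -0.74, for 4 of 19 E2F, retinoblastoma and DREAM genes and for 2 of 14 kinetochore genes. Over all 9 lists 11 of 109 genes tested were lower and 2 higher in Chd4-ECKO, and 10 lower and 2 higher in Brg1-ECKO. Cdkn1c was higher in both, by 0.88 and 1.07.

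**Figure D4:**
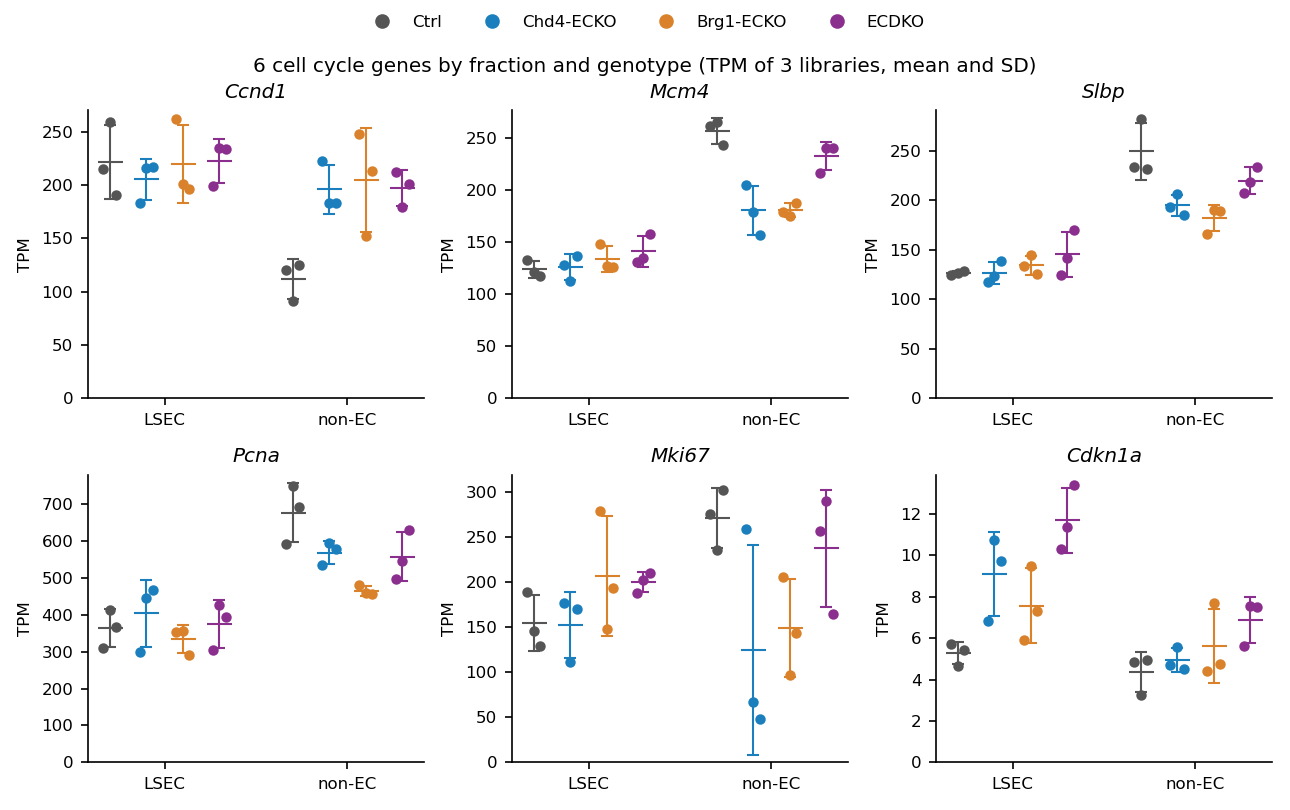
TPM of Ccnd1, Mcm4, Slbp, Pcna, Mki67 and Cdkn1a in each library, by fraction and genotype, with 1 point per library, a line at the mean of each group of 3 and bars for the SD. Ccnd1 in non-EC cells is at 90.7 to 125 TPM in controls and at 152 to 248 TPM in mutants, Cdkn1a in LSECs rises from 4.67 to 5.72 TPM in controls to 10.3 to 13.4 TPM in Chd4/Brg1-ECDKO, and Mcm4 in non-EC cells is lowest in the single mutants.

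Some of the calls in the non-EC single mutants depended on single libraries, while Mcm4 in both mutants and Pcna in Brg1-ECKO stayed called whichever library was left out. In Chd4-ECKO, leaving out mutant replicate 1 gave 17 called members (5 higher, 12 lower) where 37.7% of genes were called, while leaving out mutant replicate 2 or 3 or control replicate 2 gave 1, Mcm4, and leaving out control replicate 1 or 3 gave 2, Ccnd1 and Mcm4. The log2 fold change of Ccnd1 was 0.67 to 0.90 over these runs and that of Slbp -0.40 to -0.26. In Brg1-ECKO, leaving out control replicate 2 or mutant replicate 1 gave 2, Mcm4 and Pcna, leaving out mutant replicate 3 gave 3, and leaving out control replicate 1 or 3 or mutant replicate 2 gave 4, 5 and 4. Apart from the run with 17 called, the share of all genes called is not given for these runs. Fewer calls among members thus cannot be told from fewer calls over all genes. Cenpf, Cenpe and Mki67 had the widest spread of the members over the 12 non-EC libraries. Mki67 was at 275, 235 and 302 TPM in control non-EC cells and at 259, 67.2 and 48.7 TPM in the Chd4-ECKO, 205, 97.2 and 143 TPM in the Brg1-ECKO and 257, 290 and 164 TPM in Chd4/Brg1-ECDKO. Cenpf was at 36.8, 21.7 and 45.4 TPM in controls and at 35.2, 5.38 and 3.23 TPM in Chd4-ECKO. Replicate 1 of Chd4-ECKO was thus within the range of the controls in both genes, and replicates 2 and 3 were below it. Aurka went the other way, at 171, 187 and 163 TPM in controls and 153, 200 and 259 TPM in Chd4-ECKO.

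These libraries stood apart in more than cell cycle genes. Chd4-ECKO replicates 2 and 3 and Brg1-ECKO replicate 2 had the lowest mitochondrial shares of the non-EC libraries, 3.43%, 2.33% and 3.04%, against 5.24% to 7.69% in the others. Across 12221 genes, the deviation of each of these 3 libraries from the mean of the 12 non-EC libraries was positively related to the gene's GC content (Spearman's rho of 0.53, 0.67 and 0.54) and negatively to its transcript length (-0.41, -0.38 and -0.36). In the other 9 the rho with GC content was -0.50 to 0.29, and it was negative in all 3 controls (-0.45, -0.32 and -0.50), in Chd4-ECKO replicate 1 (-0.37) and in all 3 Chd4/Brg1-ECDKO libraries (-0.44, -0.40 and -0.18). Genes are not independent replicates, so these are descriptions. In these 3 libraries 9 of the 45 members lay below all 9 other non-EC libraries (20%, beside 14.4% of all genes), namely Bub1, Ccne2, Cenpe, Cenpf, Kif11, Kif23, Mki67, Nusap1 and Top2a. Another 6 lay above all of them (13.3%, beside 8.42%), namely Aurka, Birc5, Ccnd3, Ccne1, Cdc20 and Cdc45. Over the 45 members the deviation from the control mean, averaged over the 3 libraries, followed GC content with a rho of 0.854 and length with a rho of -0.516. Cenpf, with a transcript of 11210 bases and 43.4% GC, deviated by -2.36, whereas Plk1, with 2227 bases and 55.9% GC, deviated by 0.30.

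The non-EC calls were therefore repeated without these 3 libraries and, separately, with length and GC content taken out of each library, both chosen after seeing the data. Without the 3 libraries a single mutant library was left in Chd4-ECKO, so no call is given there. In Brg1-ECKO 9 members were then called, where 20.4% of genes were called. With length and GC taken out, Ccnd1 remained called in Chd4-ECKO and Brg1-ECKO (0.72 and 0.74, adjusted p = 0.0268 and 0.0171), Nusap1 remained called in Chd4-ECKO (-0.47, adjusted p = 0.0377), and Pcna and Slbp remained called in Brg1-ECKO. Ccne2 was then also called lower and Cdkn1b higher in Chd4-ECKO, while Slbp did not pass there at a similar fold change (-0.33, adjusted p = 0.0598), nor Ccna2 in Brg1-ECKO (-0.28, adjusted p = 0.111). Of all genes 8.64% and 13.0% were called in this setting. Mcm4 was not called in Chd4-ECKO (-0.10, adjusted p = 0.672) or Brg1-ECKO (-0.25, adjusted p = 0.230). The cause of the length and GC pattern was not tested.

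**Figure D5:**
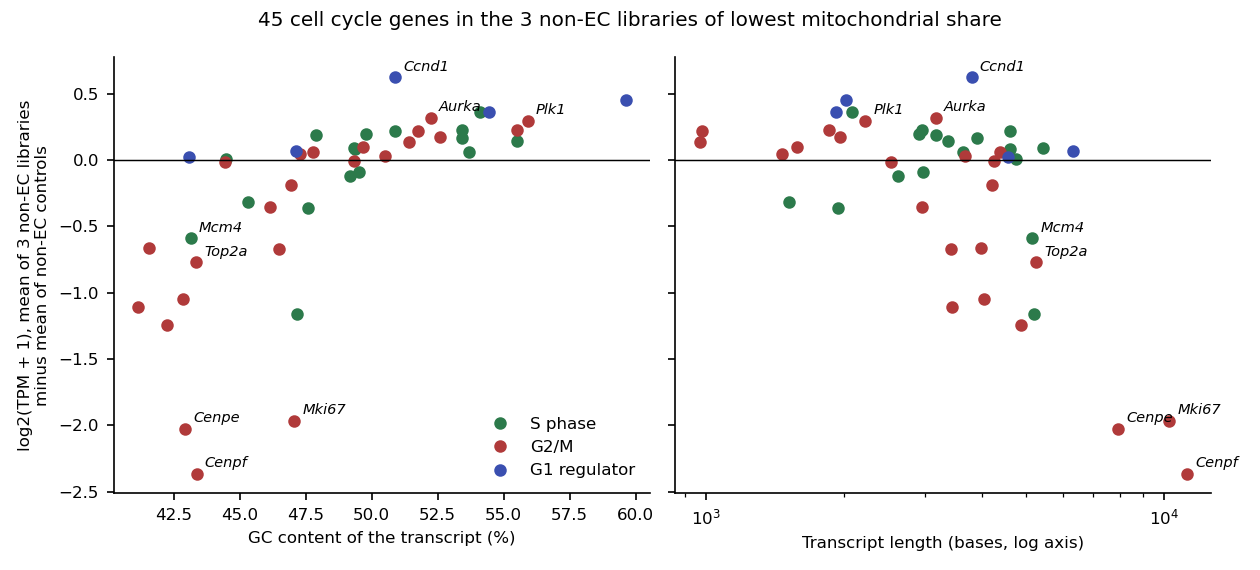
Deviation of each of the 45 members from the control mean, averaged over the 3 non-EC libraries of lowest mitochondrial share, on the log2(TPM + 1) scale, against GC content in percent and against transcript length in bases on a log axis, with 1 point per gene. Genes of higher GC content deviate upward (rho of 0.854) and longer ones downward (rho of -0.516), from -2.36 for Cenpf to 0.63 for Ccnd1.

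Whether a genotype acts differently on these genes in LSECs and non-EC cells was tested as an interaction in the model of all 24 libraries. Of the 45 members 0 were called by limma in Chd4-ECKO, Brg1-ECKO or Chd4/Brg1-ECDKO, with 10, 14 and 3 at an unadjusted p under 0.05, where 1.02%, 1.04% and 0.0581% of genes were called and 19.1%, 17.9% and 7.57% had such a p. Mcm4 came nearest in Brg1-ECKO (0.62, adjusted p = 0.053). Without non-EC Chd4-ECKO replicate 1 there were 11 called in Chd4-ECKO, where 13.9% of genes were called. With same-numbered fractions of a genotype paired, the counts were again 0 in all 3 genotypes. Between Chd4/Brg1-ECDKO and Chd4-ECKO non-EC cells 0 members were called and 14 had an unadjusted p under 0.05, where 0.0% of genes were called and 21.8% had such a p. Without Chd4-ECKO replicate 1 there were 22 called, where 32.4% of genes were called.

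Pairs of members were also compared within each fraction, as a description. After removal of genotype means, the median correlation between pairs of G2/M genes over the 12 libraries of a fraction was 0.69 in LSEC (245 of 253 pairs positive) and 0.10 in non-EC (139 of 253 positive). Pairs of S-phase genes had a median of 0.65 in LSEC (136 of 136 positive) and 0.76 in non-EC (107 of 136 positive). Over pairs of all genes the median was 0.20 in LSEC and 0.07 in non-EC. The G2/M median in non-EC was thus near that of all genes. With mitochondrial genes taken out of the TPM total, chosen after seeing the data, the S-phase median in LSEC went to 0.14, beside 0.12 over all genes, while the G2/M median in LSEC was 0.70 and the S-phase median in non-EC 0.67. Mki67 and Aurka, for example, had a correlation of 0.65 in LSEC and -0.92 in non-EC, while Mki67 and Cenpf had 0.87 and 0.99. The points share their libraries and with them depth and base composition, and the 3 non-EC libraries described above are among them. Over all 24 libraries, the genes outside the lists most like the mean of the G2/M members were Hus1 and Gtf2a1 (r of 0.94), Blm, Opa1 and Brd8 (0.93), and those most like the S-phase mean were Cct2 (0.96), Tal1 (0.95), Dlst, Pa2g4 and Mafk (0.94).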

How the data were processed

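RNA of 24 libraries of sorted liver cells was analysed, 3 per genotype and fraction, all of batch 1. The authors selected poly-A RNA, trimmed repeated guanines, used CLC Genomics Workbench for alignment to the mouse build GRCm39/mm39 (version not given in the sources used here) and deposited TPM per gene. TPM hold no depth, so no counting error was computed. The 8 deposited columns of group means were not used, and 0 per-sample columns were left unmapped.

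From these, log2(TPM + 1) was tested with limma 3.58.1 (trend, R 4.3.3, data.table package version 1.17.8), two-sided, in 1 model per fraction and 1 of all libraries for fraction and interaction. A gene was kept if 3 or more libraries in the model reached 1 TPM. Calls have a Benjamini-Hochberg adjusted p under 0.05 over all genes tested, and errors are standard errors. The log2(TPM + 1) scale understates the change of low genes. With 3 libraries against 3, an exact permutation test of a single gene cannot go below p = 0.1, so its results are not given. Figures and tables used Python 3.11.15, matplotlib 3.10.9, scipy 1.17.1, pandas 2.3.3 and numpy 2.4.6. Scripts were first tested on simulated data.

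The members and lists were chosen with earlier results of these data known. Named genes are all members, the 3 called genes of lowest p per further cell cycle list and comparison, fixed markers, the 2 targeted genes, and the 5 genes most correlated with the S-phase or G2/M mean. Of the listed marker genes 1 had no row. Replicates of a group correlated at 0.981 to 0.997, and 0 pairs of libraries were identical.

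The labels give LSEC and non-EC libraries the same replicate numbers. They do not state that same-numbered libraries of 1 genotype are fractions of 1 embryo. Deviations of such libraries correlated above 0.1 in 12 of 12 pairs (mean 0.270), but unlike numbers were not compared between fractions. Same-numbered libraries of different genotypes also correlated within a fraction (means of 0.171 in LSEC and 0.127 in non-EC). The paired fit is therefore an alternative that assumes the pairing. Alternatives changed the pseudocount, filter, scaling, moderation, model, block, left-out library and threshold, and, after seeing the data, removed natural splines of transcript length and GC content from each library or left out 3 non-EC libraries.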

Additional observations from a re-analysis of the deposited data

Results flagged for a closer look

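No member met a rule for a closer look. Among 110 genes tested in the further cell cycle lists, 4 differed between LSECs and non-EC cells in their response to a genotype, by limma's interaction test adjusted over all genes. These were 2 of 110 in Chd4-ECKO and 2 of 110 in Brg1-ECKO, where 1.02% and 1.04% of all genes were called. Cdkn1c, the CDK inhibitor p57, had an LSEC effect minus non-EC effect of -1.35 in Brg1-ECKO (adjusted p = 0.0250), with 327, 270 and 312 TPM in control and 732, 524 and 671 TPM in Brg1-ECKO non-EC cells, and 1891, 2818 and 2210.03 TPM against 1316, 2552 and 1962 TPM in LSECs. Cenph, a kinetochore gene, had 0.74 in Brg1-ECKO (adjusted p = 0.0125), with 149, 168 and 150 TPM in control and 121, 112 and 113 TPM in mutant non-EC cells, and 66.8, 68.4 and 55.1 TPM against 87.7, 80.5 and 69.5 TPM in LSECs. The p53 target Pmaip1 had 2.16 in Chd4-ECKO (adjusted p = 0.0251), with 5.57, 3.21 and 7.10 TPM in control and 10.1, 12.4 and 10.4 TPM in mutant LSECs. In non-EC cells Pmaip1 was at 8.28, 3.66 and 9.15 TPM in control and 5.08, 1.93 and 1.09 TPM in mutant libraries, the last 2 of which stood apart in length and GC content. The p53 target Bbc3 had -0.87 in Chd4-ECKO (adjusted p = 0.0320), with 5.96, 5.83 and 5.25 TPM in control and 9.44, 11.8 and 10.2 TPM in mutant non-EC cells, and 6.58, 6.69 and 6.68 TPM against 6.41, 5.68 and 6.5 TPM in LSECs.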

How the results depend on the processing

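Counts of called members between control fractions stayed at 30 to 36 in every setting, except that 14 of 32 remained with a log2 fold change above 1 in size as well, and 11 of 39 for the mean of genotypes. There Tyms went from -0.17 to 0.0827 without mitochondrial genes, and to 0.0781 without mitochondrial and hemoglobin genes. Also over the mean of genotypes, Top2a (0.26), Bub1 (0.50) and Cdk1 (0.28) became called higher in LSEC without mitochondrial genes. Gins2 (-0.06) and Hmmr (-0.05) were then no longer called lower. The call of Cdkn1a in Chd4/Brg1-ECDKO LSECs became 0 with no filter, with quantile normalization and in the replicate block with length and GC adjustment, and 0 to 1 with a library left out. In Chd4-ECKO non-EC cells the 4 calls became 2 with no filter or no trend, 0 in a model of the compared groups alone, 0 above a log2 fold change of 1, and 1 to 17 with a library left out. Nusap1 was not called there without mitochondrial genes, and Ccne2 was also called lower with quantile normalization. With the replicate block and length and GC adjustment together, Ccne2 and Mki67 were also called lower and Cdkn1b higher, while Mcm4 was not called. Without the 3 libraries of lowest mitochondrial share a single Chd4-ECKO library was left, so no count is given. In Brg1-ECKO non-EC cells the 5 calls became 9 in the compared groups alone or without the 3 libraries, 3 with length and GC adjustment, alone or with the replicate block, 0 above a log2 fold change of 1, and 2 to 5 with a library left out. Chd4/Brg1-ECDKO non-EC cells went from 0 to 1, Ccnd1, in the replicate block, in that block with length and GC adjustment, and without the 3 libraries, and against Chd4-ECKO from 0 to 0 to 22 with a library left out. The Chd4-ECKO interaction went from 0 to 1 with quantile normalization, without mitochondrial and hemoglobin genes or with length and GC adjustment, to 2 with the replicate block added, and to 0 to 11 with a library left out. The Brg1-ECKO interaction went from 0 to 1 with a filter at a mean of 5 TPM, quantile normalization, no mitochondrial genes, no mitochondrial and hemoglobin genes, the replicate block, the compared groups alone, length and GC adjustment or without the 3 libraries, to 2 with block and adjustment together, and to 0 to 1 with a library left out. Within a fraction, deviations of same-numbered libraries correlated above 0.1 in 13 of 18 pairs in LSEC and 10 of 18 in non-EC (means of 0.171 and 0.127). For unlike numbers this held in 8 of 36 pairs in each fraction (means of -0.085 and -0.067). The reported fits did not take the numbers as pairs, so deviations shared by number remain in them. The replicate block gave 5 called in Chd4-ECKO and 4 in Brg1-ECKO non-EC cells. The cause of these changes was not tested, and for most of these settings the share of all genes called is not given. The TPM hold no depth per library, and 3 libraries per group limit the precision.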
